A study of Mus musculus with 8 samples.

Results

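The pan-leukocyte genes are 10 genes that nearly all white blood cells transcribe and that liver parenchymal cells are not known for: Ptprc, Spn, Cd53, Cd48, Itgb2, Laptm5, Coro1a, Lcp1, Was and Vav1. They were found by gene name in the array files, and all 10 were present among the 63329 gene and transcript names of the 2 array designs. RNA was measured on 8 single-colour Agilent microarrays in 4 groups of 2 arrays each. Lin- BM cells (arrays L3 and L4) were the lineage-depleted bone marrow cells of 6 to 8 weeks old female mice that carry an eGFP transgene on a C57Bl6/J background. They were obtained by magnetic removal of cells bearing lineage markers, among them CD5, CD11b, CD45R, 7-4, Gr-1 and Ter119, and CD45R is itself a form of the protein encoded by Ptprc. BM-derived hepatocytes were eGFP-positive cells sorted from collagenase-perfused liver 1 month (B1 and B2) or 5 months (G1 and G3) after such Lin- cells had been given to male hemophilia A mice (the F8tm1Kaz allele) of 6 to 8 weeks with acetaminophen liver injury. The recipients kept their own blood and liver cells. Primary hepatocytes (H2 and H4) carry no strain, age or treatment in the labels. By the legends, a group comprised 2 experiments with cells pooled from several mice in each, while the labels tie no array to an experiment or an animal, so the p-values measure only the spread between these arrays.

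One slide held the Lin- BM cells with the 1-month hepatocytes. The second slide, of a different design and scanned on a different day, held the primary with the 5-month hepatocytes. Comparisons across slides therefore cannot tell group, slide and design apart. The share of spots above background ranged over the arrays from 47.7% to 58.6%. Both 1-month arrays were dimmer, with upper quartile signals of 75.5 and 89.5 against 122.2 to 193.4 elsewhere. All 9 hepatocyte markers on that design stood well above background at 1 month, and 5 of them (Alb, Apoa1, Apob, Cps1 and Ttr) did on neither Lin- BM cell array. Lin- BM cells also showed T cell RNA, with all 9 T cell markers well above background, among them Cd5, although CD5 was used for depletion.

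White blood cells are set apart from other cells by surface proteins that tune receptor signals and by actin regulators adapted to migration and to contacts between cells. Ptprc encodes CD45, the receptor tyrosine phosphatase that activates Src family kinases in lymphocytes, and Spn encodes CD43, its large sialylated neighbour on the surface. A liver holds resident macrophages, the Kupffer cells, and passing blood leukocytes, which transcribe these genes as well. Hepatocytes were separated from non-parenchymal cells by low-speed centrifugation, and BM-derived cells were in addition sorted for eGFP, which recipient cells do not carry. This sort does not by itself part donor leukocytes from donor-derived hepatocytes. The paper checked sorted cells by albumin staining. In liver sections it saw a few non-parenchymal donor cells that kept CD45. It also reports that some donor-derived cells had fused with recipient cells. How much RNA such cells gave to the arrays was not tested.

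A level was expressed as the log2 signal minus the 75th percentile of its array, so that 0 is the upper quartile of that array. Levels are compared between arrays for the same probe only, never between genes. The first design held 20 probes for the 10 genes and the second 15. Of the 10 genes, 7 (Spn, Cd53, Itgb2, Laptm5, Lcp1, Was and Vav1) had a probe of identical sequence on both designs, and 3 (Ptprc, Cd48 and Coro1a) did not. The first 30 bases of probes on which the comparisons turn are given 5′ to 3′ as the array files list them, first the probe of Spn with the largest difference, then a probe of Was and of Itgb2 present on both designs, and then the 3 Lcp1 probes, which gave different answers.
Spn, both designs: cgtggggtcgggaaaattaaatgatctgta
Was, both designs: gggtttctttccctcacagtcccttttggc
Itgb2, both designs: aaagctagagcatgagttatcataatcaag
Lcp1, both designs: tttgaatagctcccactagataagcaattt
Lcp1, second design only: gcaatacgtgcttctcttttgttgttgttt
Lcp1, first design only: gaatatcctggaagatatcggaggtggaca
On the mouse build mm9, as annotated in the array files, the Spn probe lies at chr7:134277313-134277372 (minus strand), the Was probe at chrX:7658779-7658838 (minus strand) and the Itgb2 probe at chr10:77027978-77028037 (plus strand). The Lcp1 probe of both designs lies at chr14:75630210-75630269 and the one of the second design at chr14:75629312-75629371, both on the plus strand with starts 898 bases apart. The files assign each to a transcript of the gene without giving an exon, and the first design gives no positions.

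All 10 genes were called lower in 1-month hepatocytes than in Lin- BM cells, by a median of -6.56 on the log2 scale. A gene was called where limma gave a Benjamini-Hochberg adjusted p under 0.05 and a log2 difference beyond 0.6. Of the 28522 genes tested, 26.5% were called lower and 28.8% higher, and the median difference was 0.07. Among the 10 genes, 5 were well above background on every array compared. The others were tested on the strength of their Lin- BM cell signal alone, which favours a lower call. In these bulk samples, fewer leukocytes and less RNA per cell cannot be told apart. The t-test that the methods name, after Benjamini-Hochberg adjustment, called 3 of the 10 lower, beside 1738 of the 28522 genes. Where neither array of the lower group was well above background, the difference has only a bound, taken between the mean of the bright group and the lowest signal well above background on each dim array, and is written as at least so many fold. With the 3 genes of that kind at their bound, the median was -6.37.

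**Figure D1:**
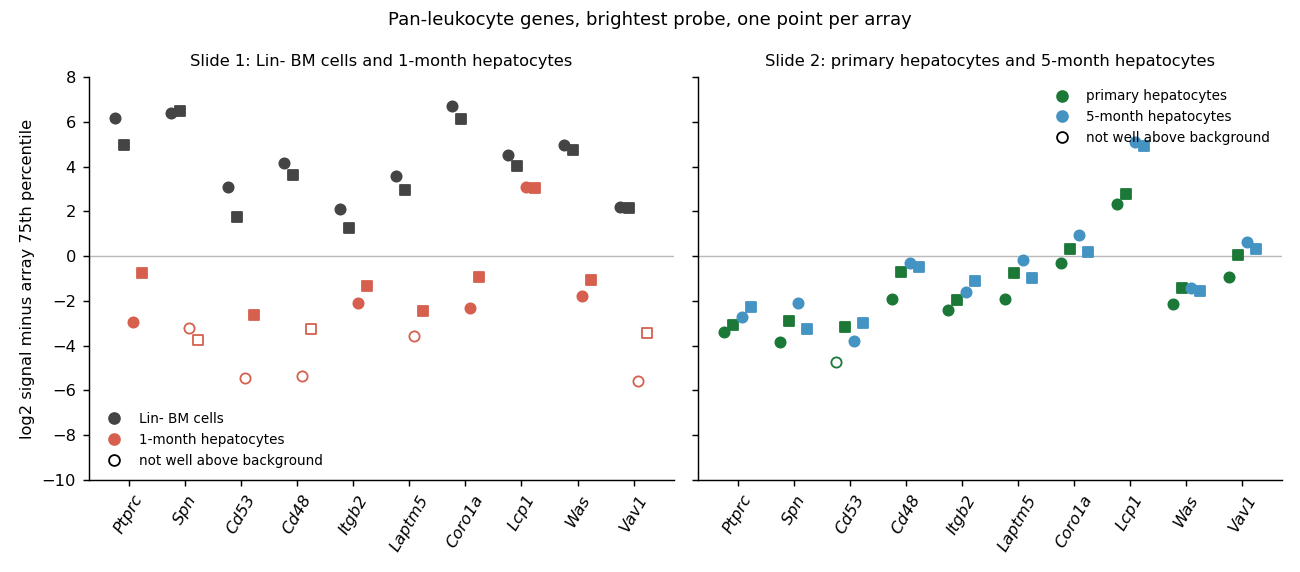
Levels of the 10 pan-leukocyte genes on each array (log2 signal minus the array's 75th percentile, vertical axis), each gene by its brightest probe of that design, so heights are not comparable between genes or between panels. Circles and squares mark the first and second array of a group and open symbols are not well above background; at 1 month all 10 genes lie below both Lin- BM cell arrays, with the gap smallest for Lcp1.

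The surface phosphatase gene Ptprc had levels of 6.16 and 4.98 in Lin- BM cells and of -2.93 and -0.75 at 1 month. It fell by 7.40 on the log2 scale (SE 0.83, limma adjusted p = 0.00245). The low arrays do not overlap the high ones, yet the 1-month arrays differ from each other by more than the Lin- BM cell arrays do. Spn was at 6.38 and 6.48 in Lin- BM cells and at -3.21 and -3.76 at 1 month, neither of the latter well above background. Its fitted difference of -9.92 (SE 0.31, limma adjusted p = 8.46e-05) was the largest of the 10, and the bound was at least 855-fold lower.

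Cd53, a tetraspanin of the leukocyte membrane, had levels of 3.10 and 1.73 in Lin- BM cells and of -5.44 and -2.63 at 1 month, the first of these not well above background. Cd48, a surface ligand of the SLAM family, went from 4.18 and 3.64 to -5.35 and -3.27, with neither 1-month array well above background, and was at least 152-fold lower. The differences were -6.45 (SE 1.03, limma adjusted p = 0.00657) for Cd53 and -8.22 (SE 0.73, limma adjusted p = 0.00132) for Cd48. Itgb2, the shared beta chain of the leukocyte integrins, was at 2.12 and 1.24 in Lin- BM cells and at -2.11 and -1.33 at 1 month. All 4 of these arrays were well above background, and the difference was -3.39 (SE 0.45, limma adjusted p = 0.00397), the smallest of the surface genes. Laptm5, a lysosomal membrane protein that lowers antigen receptor levels, had levels of 3.60 and 2.96 against -3.56 and -2.43, with only the second 1-month array well above background, and a difference of -6.27 (SE 0.49, limma adjusted p = 0.000895).

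Coro1a, which encodes coronin 1A, a regulator of actin turnover in lymphocytes, was at 6.73 and 6.15 in Lin- BM cells and at -2.30 and -0.95 at 1 month, a difference of -8.07 (SE 0.53). Its other probe, well above background on all 4 arrays, differed by -4.98 (SE 0.33). Was, the Wiskott-Aldrich syndrome protein that links Cdc42 to actin branching, was at 4.97 and 4.75 and at -1.77 and -1.08, a difference of -6.29 (SE 0.34). Vav1, a guanine nucleotide exchange factor for Rac downstream of antigen receptors, was at 2.18 and 2.14 in Lin- BM cells and not well above background at 1 month (-5.58 and -3.42), at least 47.4-fold lower. Lcp1, which encodes the actin bundling protein L-plastin, had the highest levels left at 1 month relative to Lin- BM cells: its brightest probe was at 4.52 and 4.03 in Lin- BM cells and still at 3.07 and 3.03 at 1 month. Its difference of -1.23 (SE 0.30, limma adjusted p = 0.0223) was the smallest of the 10. The call of Lcp1 was lost when L3 (-0.98), B1 (-1.25) or B2 (-1.21) was left out. The other Lcp1 probe of this design fell by 2.63 (SE 0.35, limma adjusted p = 0.00382 in a fit over 35722 probes), so both probes were lower and by unequal amounts. In that fit 20 of the 20 probes of the 10 genes were called lower. The share of all probes called lower was not counted, and by gene it was 26.5%. Most of the 20 were not well above background on both 1-month arrays. Those probes entered the fit through the Lin- BM cells alone, which favours a lower call.

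In percent of the mean Lin- BM cell level (the mean of the log2 values), the 1-month arrays B1 and B2 held 43.4 and 42.0% for Lcp1 by its brightest probe and 19.0 and 13.7% by the other. Itgb2 was at 7.27 and 12.5%. By their brightest probes the other 8 genes lay between 0.0858% (Spn on B2) and 3.03% (Cd53 on B2), values that include signals not above background. Dimmer probes gave higher shares for some of them: the other Coro1a probe held 3.02 and 3.34%, one of Ptprc held 4.81 and 3.92% and one of Spn 10.2 and 9.04%, the last 2 probes not being well above background at 1 month. Of the 10 genes, 5 cleared the background on B1 and B2 alike (Ptprc, Itgb2, Coro1a, Lcp1 and Was), 2 on B2 alone (Cd53 and Laptm5) and 3 on neither (Spn, Cd48 and Vav1). Signal was therefore measurable at 1 month for 7 of the 10 genes. In primary hepatocytes, on the other design, 9 of the 10 cleared the background on both arrays. The cell source of the signal at 1 month was not tested.

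The partners of these proteins followed in the same direction. Of the 40 companion genes listed for leukocytes, 38 were tested and 37 were called lower, where 26.5% of all genes were. The median difference was -5.26 (-5.05 with 13 genes at their bound) against 0.07 over all genes. Of the 38, 21 were well above background on all 4 arrays. The others passed the filter through the Lin- BM cells alone, which favours a lower call. Among companions well above background on all 4 arrays, the largest differences were those of Itgb7 (-7.26), an integrin beta chain of lymphocytes, Rac2 (-7.10), the haematopoietic Rac GTPase, Selplg (-6.90), the P-selectin ligand, and Cd52 (-6.31). The Itgb2 partners Itgal and Itgax, which encode the alpha chains of LFA-1 and CD11c, differed by -2.07 and were at least 24.1-fold lower, in that order. Itgam, which encodes CD11b, was low in Lin- BM cells too (-1.83 and -3.21) and at least 1.85-fold lower at 1 month. Ptprcap, the CD45-associated protein, changed by -3.93, the Was partner Wipf1 by -3.94 and the Vav1 partner Lcp2, which encodes SLP-76, by -4.35. Only Lyn, a Src family kinase, was not called among the companions (-0.72, limma adjusted p = 0.0836).

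The widely expressed relatives of the same families did not share this direction. Of 19 listed, 18 were tested, 10 were called higher at 1 month and 4 lower, and the median was 1.25. Over all genes tested, 28.8% were called higher and 26.5% lower, so the relatives called lower were near the share of all genes. The plastin relative Pls3 was higher by 5.21 (SE 0.28, limma adjusted p = 0.000353), Laptm4b by 2.28, Laptm4a by 1.06, the N-WASP gene Wasl by 1.98 and the tetraspanin Cd81 by 1.96. The receptor phosphatases Ptprk and Ptprf were higher by 5.75 and 5.56. Vav2 (0.35), Itgb1 (0.38) and Coro1b (-0.76, limma adjusted p = 0.0835) were not called. The 4 called lower were Cd63 (-4.37), Vav3 (-3.96), Wasf2 (-2.68) and Coro1c (-1.06), and Coro1c was not well above background at 1 month.

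**Figure D2:**
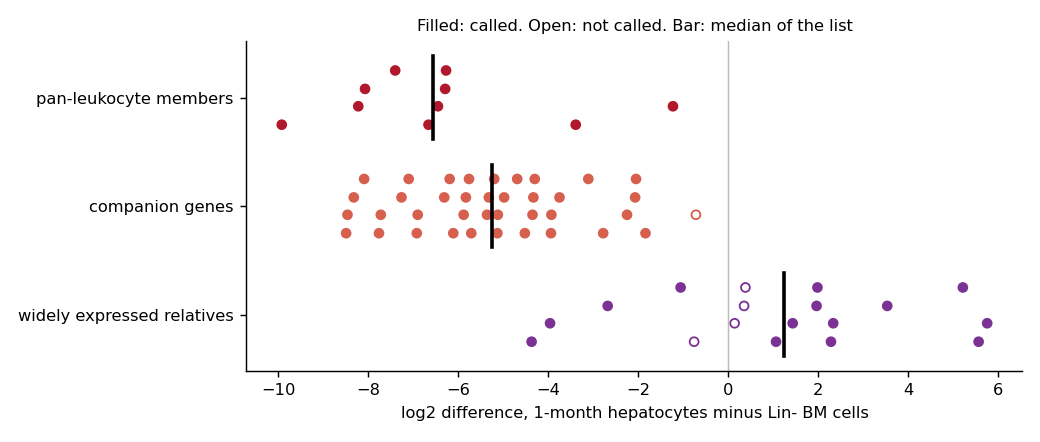
Log2 difference of 1-month hepatocytes minus Lin- BM cells (horizontal axis) for the 10 pan-leukocyte members, 38 companion genes and 18 widely expressed relatives, one point per gene. Filled points were called, open points were not and bars are medians (-6.56, -5.26 and 1.25).

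The arrays of a group were not alike in these genes. At 1 month B2 was above B1 for 8 of the 10 genes, with a median gap of 1.24 log2, while 50.5% of all genes tested were above with a median of 0.01. The exceptions were Spn and Lcp1. Of 12 Kupffer cell markers, all well above background on both arrays, 11 were higher on B2, with a median gap of 2.42, and the summed Kupffer level (the sum of linear signals relative to the upper quartile) was 12.9 on B1 and 51.8 on B2. The hepatocyte markers had a median gap of -0.02. The sums of T cell markers were 1.11 and 1.39 and those of neutrophil markers 3.01 and 1.96 on the same arrays, with Cd2, Cd3d, Cd3g and Trat1 and with Camp, Csf3r, Mmp8, Ngp and S100a8 not above background. The part of Kupffer cell RNA in the level of the pan-leukocyte genes was not tested. In Lin- BM cells 9 of the 10 genes were lower on L4 than on L3, with a median gap of -0.55, against 48.2% of all genes above. The summed T cell level was 137 on L3 and 28.1 on L4. The neutrophil markers were lower on L4 for 10 of 10 (median -3.52, sums of 1030 on L3 and 483 on L4) and the NK cell markers for 7 of 7 (median -0.66). The part of these cells in the levels of the pan-leukocyte genes was not tested.

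**Figure D3:**
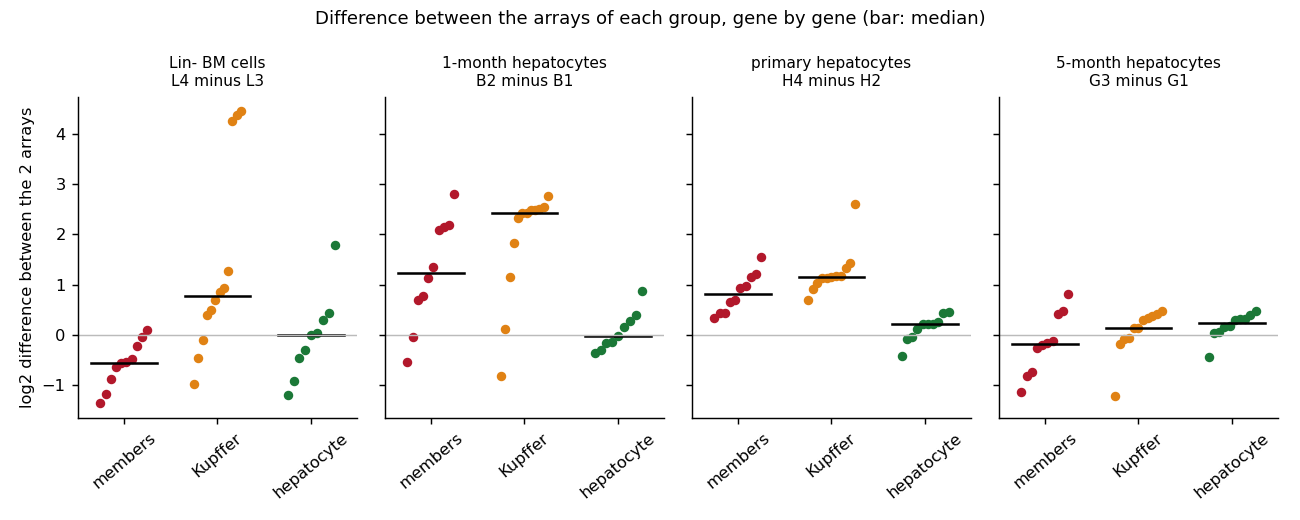
Log2 difference between the 2 arrays of each group (vertical axis) for the pan-leukocyte members, Kupffer cell markers and hepatocyte markers tested on that slide, one point per gene with the median as a bar. In 1-month and primary hepatocytes the medians of members (1.24 and 0.82) and of Kupffer cell markers (2.42 and 1.16) lie above those of hepatocyte markers (-0.02 and 0.21).

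In 5-month hepatocytes all 10 genes had higher mean levels than in primary hepatocytes, by 0.29 to 2.45 log2 with a median of 0.74, but limma called none of them. Over the 19929 genes tested, 0.552% were called in either direction, 53.4% had a difference above 0, and the median was 0.04. At an unadjusted p under 0.05 there were 3 of the 10 (Lcp1, Ptprc and Itgb2), where 14.1% of all genes tested (2817) had such a p. The methods' t-test gave 1 at the same unadjusted threshold (Lcp1), and after Benjamini-Hochberg adjustment it gave none. The arrays of the groups did not overlap for 5 genes (Ptprc, Itgb2, Cd48, Vav1 and Lcp1), with 25.2% of all genes higher without overlap.

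Ptprc was at -3.40 and -3.07 in primary and at -2.71 and -2.29 in 5-month hepatocytes, a difference of 0.73 (SE 0.27, limma adjusted p = 0.347). Itgb2 was at -2.39 and -1.96 and then at -1.61 and -1.13, a difference of 0.81 (SE 0.29, limma adjusted p = 0.347). These were low levels, with Ptprc signals of 13.4 to 21.1 and Itgb2 signals of 27.1 to 47.3 on the array scale. Cd48 was at -1.91 and -0.69 against -0.29 and -0.49, a difference of 0.91 (SE 0.46), and Vav1 at -0.93 and 0.05 against 0.61 and 0.34, a difference of 0.92 (SE 0.40). For both genes H2 lay far below H4, and the 5-month arrays lay just above H4. Laptm5 (0.76), Spn (0.67), Cd53 (0.54), Coro1a (0.53) and Was (0.29) had overlapping arrays. Cd53 was not well above background on H2.

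Lcp1 had the largest difference, and it held for 1 probe only. The probe of the second design alone gave signals of 715 and 868 in primary and of 4210 and 3130 in 5-month hepatocytes, a difference of 2.45 (SE 0.25, limma adjusted p = 0.0596). The probe present on both designs gave 1440 and 1230 against 1210 and 738, a difference of -0.25 (SE 0.26, limma adjusted p = 0.707 in a fit over 27020 probes). Both were bright on all 4 arrays, and they pointed in opposite directions, so the direction of Lcp1 at 5 months is not settled by these arrays. The other genes with more than 1 probe well above background agreed in direction: Cd48 (0.91 and 0.74), Laptm5 (0.76 and 0.97) and Vav1 (0.92 and 0.86). A second Spn probe was not well above background on any of the 4 arrays.

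The primary hepatocyte array H2 was low in these genes throughout: H4 was above H2 for 10 of the 10, by a median of 0.82. Without H2 the median difference of the 10 genes was 0.25 and 8 were above 0, with Cd53 (-0.23) and Was (-0.06) below, and limma called 1 (Lcp1, 2.23). Without H4 the median was 1.23 and 3 were called (Vav1, 1.41; Cd48, 1.51; Lcp1, 2.67). Without G1 or G3 the medians were 0.79 and 0.96 and none was called.

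Kupffer cell markers moved with them. All 11 tested were higher in 5-month hepatocytes, by a median of 0.99 with none called by limma (3 at an unadjusted p under 0.05, against the 14.1% of all genes). Their arrays did not overlap in any of the 11, where 25.2% of all genes were higher without overlap. The summed Kupffer level was 36.2 (H2) and 78.3 (H4) in primary and 137 and 136 in 5-month hepatocytes, and H4 exceeded H2 for 11 of the 11 by a median of 1.16. Of the 12 markers only Cd163 was not above background at 5 months. The tested T cell markers were also higher (6 of 6, median 0.72, none called, 2 at an unadjusted p under 0.05 beside the same 14.1%), while Cd8a, Cd8b1 and Trat1 were not above background on any of the 4 arrays. For the neutrophil list, of 6 tested 1 was higher on G3 than on G1, with a median gap of -1.12. S100a9 was at 5.66 on G1 and 0.15 on G3 and Mpo at 2.24 and -5.22. Of the 4 arrays, Mpo, Ngp, Ltf and Mmp8 were well above background on G1 alone. S100a8 was well above background on H2, H4 and G1 but not on G3. Csf3r (6.67 and 6.34), Elane (3.42 and 3.56) and Ly6g (-1.19 and -1.23) were close on G1 and G3. On G1 7 of the 10 pan-leukocyte genes were higher than on G3, most of all Spn (-2.11 against -3.25), Laptm5 (-0.17 against -0.99) and Coro1a (0.93 against 0.18). The median gap, G3 minus G1, was -0.19 for the 10 genes and 0.07 over all genes tested. Of all genes tested, 59.1% were higher on G3. The Kupffer cell markers were higher on G3 for 7 of 11 (median gap 0.14) and the T cell markers for 3 of 6 (median gap 0.01). The part of Kupffer cell, T cell and neutrophil RNA in these levels was not tested. The companions shared the direction, with 33 of 33 above 0, a median of 0.62, none called by limma and 7 at an unadjusted p under 0.05, against 14.1% of all genes. Rac2 (1.36), Cd52 (1.04) and the myeloid adaptor Tyrobp (1.01) were among the highest of those well above background on all 4 arrays. The widely expressed relatives had 11 of 18 above 0 and a median of 0.18.

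**Figure D4:**
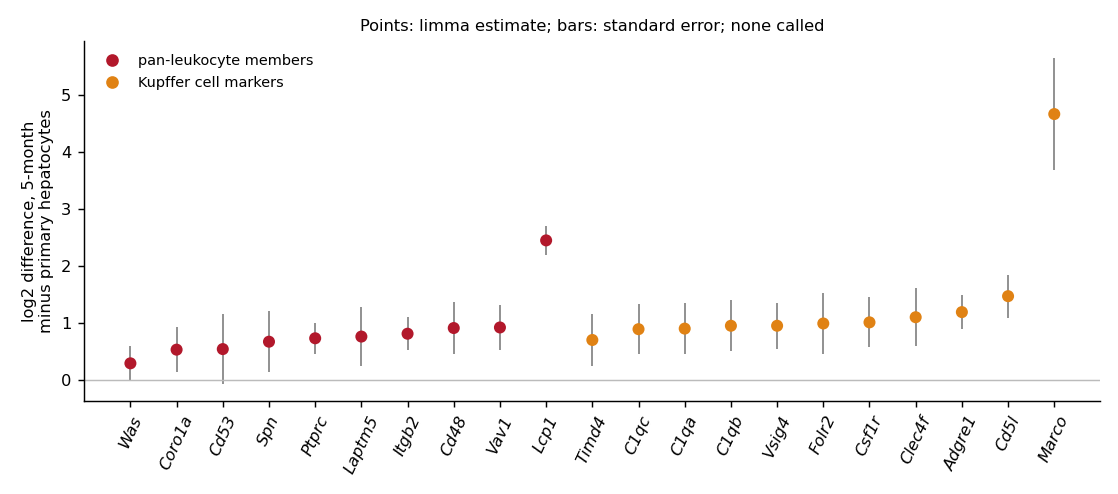
Log2 difference of 5-month minus primary hepatocytes (vertical axis) with its standard error for the 10 pan-leukocyte members and 11 Kupffer cell markers, each by its brightest probe. All 21 points lie above 0 and none was called; Lcp1 (2.45) and Marco (4.67) stand above the rest, and the other Lcp1 probe, not drawn, gave -0.25.

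The probes of identical sequence allowed all 4 groups to be set side by side for 7 genes, with the 75th percentile taken over the shared probes and 9225 genes in the fit. All 7 were called lower in primary hepatocytes than in Lin- BM cells, where 38.1% of all genes were called lower, and all 7 were called lower in 5-month hepatocytes, where 37.8% were. These 2 comparisons share the Lin- BM cell arrays and both cross the slides. The median of all genes was -0.29 and -0.30 in them, and with the percentile taken over all probes of each design it was -0.05 and -0.10. Spn differed by -10.02 (SE 0.49, limma adjusted p = 7.69e-06) in primary and by -9.31 (SE 0.49, limma adjusted p = 1.12e-05) in 5-month hepatocytes. Was differed by -6.90 and -6.56, Cd53 by -6.59 and -6.01, Vav1 by -5.51 and -4.61, Laptm5 by -4.86 and -4.06, Itgb2 by -4.09 and -3.24 and Lcp1 by -1.20 and -1.41, in the same order of comparisons.

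In percent of the Lin- BM cell level, Lcp1 held 43.9 and 43.0% on H2 and H4, 43.3 and 43.6% on B1 and B2, and 44.8 and 31.6% on G1 and G3. These shares cross the slides and rest on the scaling to the shared probes. Itgb2 was at 4.99 and 6.90%, then at 7.27 and 13.0% and then at 9.08 and 12.3%. Spn stayed under 0.25% on all 6 hepatocyte arrays, at 0.0685 to 0.238%. Was held 0.65 and 1.08% on H2 and H4, 1.00 and 1.69% on B1 and B2, and 1.12 and 0.993% on G1 and G3.

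**Figure D5:**
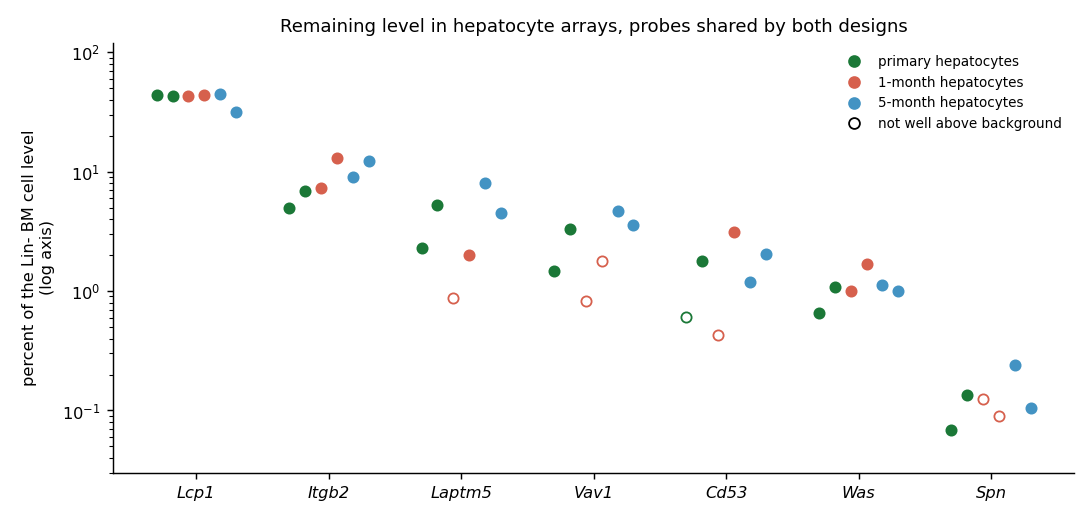
Level on each hepatocyte array in percent of the mean Lin- BM cell level (vertical log axis) for the 7 genes with a probe of identical sequence on both designs, ordered by their level; open circles were not well above background. Lcp1 lies between 31.6 and 44.8%, Itgb2 between 4.99 and 13.0% and Spn between 0.0685 and 0.238%.

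Between the hepatocyte groups across slides, limma called none of the 7 genes. For 5 months against 1 month, where 17.1% of all genes were called in either direction, the differences ran from -0.30 (Was) to 2.18 (Laptm5). Laptm5 was at -5.01 and -3.82 at 1 month and at -1.80 and -2.66 at 5 months (SE 0.60, limma adjusted p = 0.052), and Vav1 was at -6.81 and -5.71 and at -4.31 and -4.71 (difference 1.75, SE 0.52, limma adjusted p = 0.0616). Both 5-month arrays were above both 1-month arrays for these genes, as for 29% of all genes, and they were also the 2 of 7 with an unadjusted p under 0.05, which 34.8% of all genes had. Vav1 was not well above background on either 1-month array. With the percentile over all probes of each design, both were called (Laptm5 2.41, Vav1 1.98), and the median of all genes moved from -0.15 to 0.08. For 1 month against primary hepatocytes, where 16.7% were called, the differences ran from -1.39 (Laptm5, limma adjusted p = 0.166) to 0.73 (Itgb2, limma adjusted p = 0.308), and none had an unadjusted p under 0.05.

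The order of levels over the groups was described by the mean of the 7 genes over the 8 arrays, to which each gene's own profile can be compared. Each member correlated with the mean of the others at a Pearson r of 0.916 (Lcp1) to 0.984 (Was). Among 9218 other genes the most alike were Ms4a4b (r = 0.998), a membrane protein of T cells, Itgb7 (0.9969), Emp3 (0.9968), Nckap1l (0.9967), the haematopoietic subunit of the WAVE complex, and Dock11 (0.9963), an exchange factor for Cdc42. These values are descriptions over 8 arrays that share the contrast of Lin- BM cells with hepatocytes.

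The members move together, so the sequence before their starts was examined for short motifs on either strand. RefSeq promoter windows of 300 bases (250 before to 50 after a start, GRCm38.p6) were given for 9 of the 10 genes, in 12 windows. GAGGAA, a core that ETS factors such as PU.1 can bind, was present in windows of 5 of the 9 genes (Cd53, Laptm5, Ptprc, Vav1 and Was), that is in 5 of the 12 windows, against 28.3% of all 32851 windows. TGTGGT, a RUNX core, was present in 3 of the 12 (Cd48, Cd53 and Was) against 16.8% of all windows, TATAAA in 2 (Laptm5 and Ptprc) against 13.6% and the Sp1 core GGGCGG in 4 (Coro1a, Lcp1 and Vav1) against 35.7%. None of these motifs lies within another. A match is a description and no evidence of binding. The windows of Cd53, Vav1 and Was are shown because they hold GAGGAA or its reverse complement, in capitals, and each is written 5′ to 3′ on the strand of the gene.
Cd53, chr3:106790100-106790399 (minus strand): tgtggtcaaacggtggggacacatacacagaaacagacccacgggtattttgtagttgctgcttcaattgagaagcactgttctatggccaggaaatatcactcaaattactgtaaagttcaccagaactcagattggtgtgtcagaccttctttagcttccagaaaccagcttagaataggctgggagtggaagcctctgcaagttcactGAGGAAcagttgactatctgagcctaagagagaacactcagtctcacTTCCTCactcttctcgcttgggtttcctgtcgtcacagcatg
Vav1, chr17:57278850-57279149 (plus strand): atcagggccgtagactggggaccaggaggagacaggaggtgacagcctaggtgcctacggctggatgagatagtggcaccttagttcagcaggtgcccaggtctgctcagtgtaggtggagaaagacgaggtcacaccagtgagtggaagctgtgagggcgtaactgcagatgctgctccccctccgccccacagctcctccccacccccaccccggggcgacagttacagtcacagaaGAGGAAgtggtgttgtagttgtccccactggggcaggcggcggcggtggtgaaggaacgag
Was, chrX:8090442-8090741 (minus strand): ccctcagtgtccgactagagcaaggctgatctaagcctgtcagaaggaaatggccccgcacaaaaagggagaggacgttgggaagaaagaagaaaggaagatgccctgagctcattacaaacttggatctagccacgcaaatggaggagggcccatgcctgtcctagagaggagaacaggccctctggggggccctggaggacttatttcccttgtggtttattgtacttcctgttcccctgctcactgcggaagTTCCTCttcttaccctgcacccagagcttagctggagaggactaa
Cd53 holds the motif 2 times and Vav1 and Was hold it 1 time each. The windows given for Spn, Cd48, Coro1a and Lcp1 held none.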

How the data were processed

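RNA of 8 samples was hybridised to single-colour Agilent arrays of 2 designs (61307 and 55681 probes without controls). Per the file headers, Feature Extraction 11.5.1.1 made the deposited intensity values, background-subtracted signals with a flag for spots well above background. The authors also deposited log2 values shifted to the 75th percentile in GeneSpring GX; these were used as an alternative. Here log2 of the processed signal minus the 75th percentile of its array was taken, outlier spots were left out, and a probe was kept if at least 1 group had both of its spots flagged well above background, with the brightest probe standing for its gene. Within a slide all probes were used, across slides the 13991 of identical sequence. Groups were compared with lmFit and eBayes in limma 3.58.1 (R 4.3.3), within slides over 4 arrays and across slides over all 8, and p-values were adjusted by Benjamini and Hochberg's method across every gene in the fit. An exact permutation test of 2 against 2 arrays cannot go below 0.33 and was not used. Python 3.11.15, pandas 2.3.3 and matplotlib 3.10.9 were used for tables and plots. The script was tested on simulated data. Precision is limited by 2 arrays per group. Promoter windows came from RefSeq (GRCm38.p6). The methods name no donor strain for primary hepatocytes.

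The members, the lists of companions, relatives and cell type markers and the alternatives were chosen with earlier results of these data known. Genes named singly are the members, listed partners and relatives, the 4 companions with the largest change in each direction among those well above background on all arrays compared, markers above background in hepatocytes or absent there, and the 5 genes most alike in profile; markers were named from among those that qualify. A gene that this rule names is not reported here.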

Additional observations from a re-analysis of the deposited data

How the results depend on the processing

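No paired analysis was possible because the groups compared share fewer than 2 replicate numbers. In all, 541 of the values of single genes under an alternative kept their direction and side of the threshold, 15 became calls, 21 lost the call and 27 changed sign. Among genes lower at 1 month than in Lin- BM cells, the methods' t-test after adjustment called 3 of the 10 members, 12 companions and 2 relatives. It called 1738 of all 28522 genes lower. The fit of 4 groups on shared probes called 23 companions of 23 tested. Slide as a block could not change that fit, because slide is fixed by group and the term drops out. Values with the block therefore repeat those without it and are no separate check. That fit called 2940 of all 9225 genes lower. The members called ranged from 9 to 10 when 1 array was left out. For primary and for 5-month hepatocytes against Lin- BM cells, the adjusted t-test called 3 of 7 in each. Of all 9225 genes it called 1240 and 1657 lower, in that order. For 5 months against primary hepatocytes, 1 member was called with normexp background correction and 1 by the unadjusted t-test (Lcp1 in both), and 0 to 3 without 1 array. Over all genes, that comparison had 73 higher and 37 lower calls, 0 without G1 or G3, 940 and 593 without H2, 1092 and 531 without H4, 747 and 616 by the unadjusted t-test, 0 by the adjusted one, and 24 and 14 without the filter on dim probes. Lcp1 turned to -0.21 on shared probes, which use the other probe. Without 1 array Cd53 ran from -0.23 to 1.31 and Was from -0.06 to 0.64.

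For 5 months against 1 month, 2 members (Laptm5 and Vav1) were called with quantile normalization, with the percentile over all probes and with the authors' values, and 1 (Laptm5) with the mean of the probes. Normexp turned Spn to -0.36, Itgb2 to -0.26, Vav1 to -0.32 and Cd53 to -0.52, and Lcp1 was 0.02 with the percentile over all probes and with the authors' values. Without 1 array Spn ran from -0.01 to 1.17, Itgb2 from -0.30 to 0.54, Cd53 from -1.02 to 1.85, Lcp1 from -0.46 to 0.04 and Was from -0.68 to 0.07. For 1 month against primary hepatocytes, quantile normalization called 1 (Vav1) and the mean of the probes 1 (Laptm5). Vav1 was 0.47 with normexp; Spn was -0.58 and Cd53 -0.81 with quantile normalization, -0.13 and -0.10 with the percentile over all probes, and -0.14 and -0.11 with the authors' values. Without 1 array Spn ran from -0.35 to 0.62 and Cd53 from -1.26 to 1.60. Over all genes, calls at 1 month against Lin- BM cells numbered 15777, 9773 to 12629 without 1 array, 4566 by the adjusted t-test and 26462 without the filter. At 5 months against 1 month they numbered 1578, 332 to 766 without 1 array, 14 by the adjusted t-test and 2693 with normexp, and at 1 month against primary hepatocytes 1543, 571 to 1011, 2 and 2423, with 4034 without the filter. Against Lin- BM cells the adjusted t-test gave 2504 of 6214 calls for primary and 3315 of 6190 for 5-month hepatocytes. The split of all calls moved with scaling: the share higher at 5 months against 1 month was 33.9%, 47.0% with quantile normalization and 52.5% with the percentile over all probes, and at 1 month against primary hepatocytes 69.5%, 53.0% and 50.2%. At 1 month against Lin- BM cells it was 52.1%, 62.7% with normexp and 71.9% without the filter. The cause of these changes was not tested. Signals near background at 1 month limit Spn, Cd48, Vav1, Cd53 and Laptm5.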

Other observations

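Blood cell genes outside the pan-leukocyte set were also lower at 1 month than in Lin- BM cells. Over all genes tested, 26.5% were called lower. All 7 NK cell markers were called lower by limma, among them Nkg7 (-7.61), a granule protein of cytotoxic cells. So were all 7 platelet and megakaryocyte markers, among them Pf4 (-7.71), platelet factor 4. In each of these 2 lists only 1 marker was well above background on all 4 arrays. The others passed the filter through the Lin- BM cells alone, which favours a lower call. Of 7 progenitor markers 6 were lower: Myb, a transcription factor of blood progenitors, was at least 1630-fold lower, the stem cell factor receptor Kit differed by -4.37 and Cd34 by -6.31, while Hlf was at 0.89 and not called. Of 7 erythroid genes tested 6 were lower, with the alpha globin gene Hba-a1 at -6.65, and Alas2, the erythroid enzyme of haem synthesis, was higher by 1.73 (limma adjusted p = 0.0127). Of 9 T cell markers 7 were lower, and Cd3e (-0.41) and Cd4 (0.25) were not called. Of 6 B cell markers tested 3 were called lower, with a median of -1.10 over the 6: the antigen receptor chain gene Cd79b differed by -8.74 and Ms4a1, which encodes CD20, was at least 39.8-fold lower, while Cd79a (-0.42) and Pax5 (-0.15) were not called.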
